A study of Mus musculus with 4 samples.

Results

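Amino acid transporter genes were examined across the cell classes of the mouse thymus. The members were genes of the solute carrier families SLC1, SLC3, SLC6, SLC7, SLC36, SLC38 and SLC43 whose symbols end in a number. They were chosen by symbol and not by measured level, and they numbered 61 of the 55418 genes in the count tables. Symbols with a letter after that number, such as Slc6a20a of SLC6, were outside this set. The families were SLC1 (7 genes), SLC3 (2), SLC7 (10 light chains and 5 cationic carriers), SLC43 (3), SLC38 (11), SLC36 (4) and SLC6 (19). Family and substrate do not coincide for every member: Slc43a3 is a nucleobase carrier, Slc6a6 carries taurine, Slc6a8 carries creatine, and several SLC6 members carry neurotransmitters. All 61 were found in the gene annotation of GRCm39, the mouse build used for positions here unless another is named.

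The study profiled single cells of the thymus that carried a myeloid reporter, to describe thymic macrophages beside the other cells with the reporter. MAFIA mice carry the transgene Csf1r-EGFP-NGFR/FKBP1A/TNFRSF6, in which the promoter of Csf1r, the receptor of macrophage colony-stimulating factor, drives EGFP and an inducible suicide receptor, and they were 5 weeks old. Cd11cYFP mice carry Itgax-Venus, a yellow reporter under the CD11c promoter of dendritic cells (DCs) and some macrophages, and they were 9 weeks old. Both were on C57BL/6, were killed with CO2 and received no other treatment, and their digested thymuses were enriched on Percoll and sorted for GFP+ or YFP+ cells. Because both promoters are active in several cell types, a sorted cell was not a macrophage by its reporter alone. According to the study's methods the MAFIA mouse was female and the Cd11cYFP mice were male, so reporter, sex and age cannot be told apart. MAFIA replicate 2 and Cd11cYFP replicates 1 and 2 entered the comparisons. MAFIA replicate 1, with a median of 3980.5 UMIs (unique molecules) per barcode, did not.

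The libraries compared held 6347, 7687 and 9737 barcodes with medians of 17493, 15759 and 17210 UMIs, and 10 to 25 barcodes were shared between any pair of them. Cells were clustered without the transporter genes and without the amino acid pathway genes described below, and 22185 of 23549 cells fell into 13 classes named from marker genes. The names are rebuilt here and end in -like. They comprised Timd4+ and Cx3cr1+ macrophage-like cells, monocyte-like cells, Xcr1+, Cd209a+ and Ccr7+ DC-like cells, plasmacytoid DC (pDC)-like, B cell-like, thymocyte-like and fibroblast-like cells, and proliferating forms of the Xcr1+, Cd209a+ and thymocyte-like classes. The labels call all cells myeloid, whereas B cell-like cells alone numbered 828, 913 and 933. The Timd4+ class carried its defining genes Timd4 (441, 392 and 368 CPM) and Spic (447, 574 and 505 CPM), and the monocyte-like class carried Ly6c2 (4139, 2352 and 1144 CPM). Levels below are in CPM, the UMIs of a gene scaled to a fixed total of 1000000 UMIs over all cells of a class in a library, always in the order MAFIA replicate 2, Cd11cYFP replicate 1, Cd11cYFP replicate 2, and means are given ± SD with n = 3 libraries. The reads came from transcript 3′ ends and each molecule was counted once, so levels of different genes are not scaled to length. The fibroblast-like class did not hold the same cells in every library. Its fibroblast markers summed to 450.3, 18893 and 12102 CPM and its thymic epithelial markers to 5287, 1230.0 and 2199.8 CPM. The name thus does not hold for the 28 cells of MAFIA replicate 2, and means of this class over 3 libraries join different cells.

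Cells import amino acids through carriers that differ in what drives them. SLC1 carriers concentrate glutamate or exchange small neutral amino acids, SLC38 carriers use sodium to import glutamine and alanine or sit on lysosomes, and SLC36 carriers move small amino acids together with protons. The heteromeric carriers consist of a heavy chain from SLC3, which brings the complex to the membrane, and a light chain from SLC7, which does the transport. In macrophages, which digest apoptotic cells, carriers of the plasma membrane and of the lysosome handle amino acids from outside and from engulfed protein, while xCT (Slc7a11) imports cystine for glutathione in exchange for glutamate.

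Timd4+ macrophage-like cells had the highest summed level of the 61 transporter genes. The sum was 2767, 3040.3 and 2904 CPM in Timd4+ cells and 1711, 1873 and 1771 CPM in Cx3cr1+ cells, and no library of another class reached the lowest Cx3cr1+ value. Fibroblast-like cells followed at 1311 ± 7.78 CPM and monocyte-like cells at 1272 ± 129 CPM. The fibroblast-like libraries held different cells, and the nucleobase carrier Slc43a3 made up 13.5% of that sum. The lowest sums were those of Xcr1+ cells (791 ± 90.2 CPM) and of proliferating Xcr1+ cells (718 ± 101 CPM). MAFIA replicate 2 was the lowest library in 12 of the 13 classes.

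**Figure D1:**
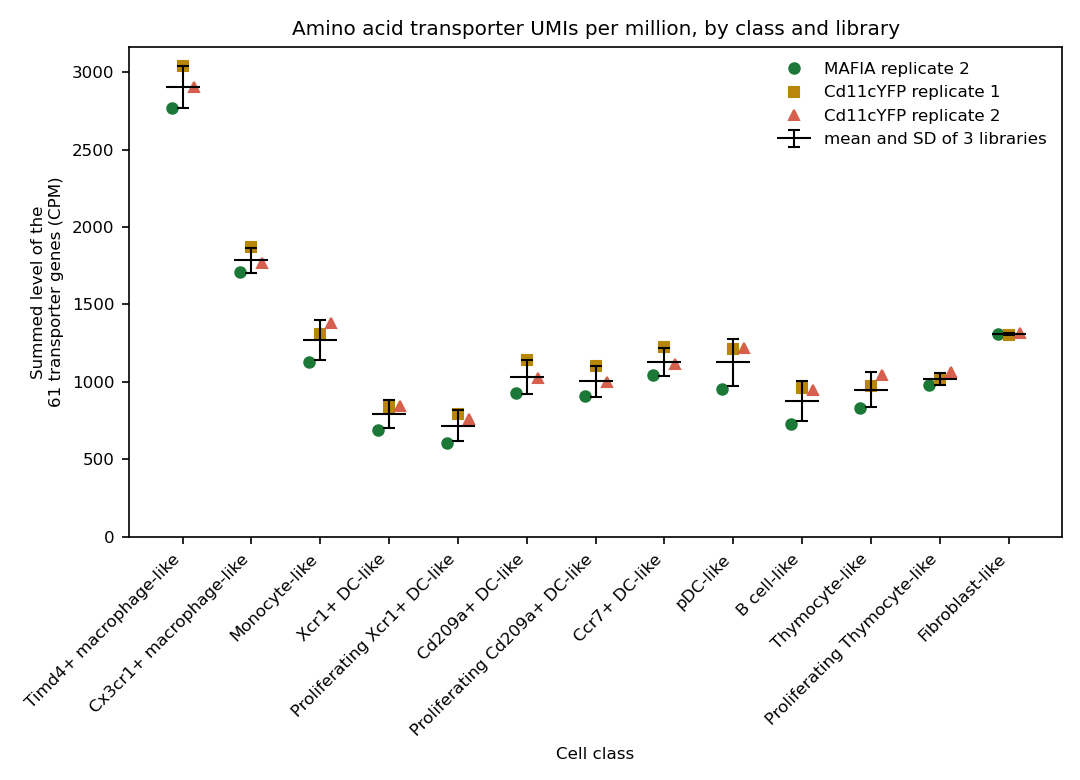
Summed level of the 61 transporter genes (CPM, vertical axis) in each cell class (horizontal axis). Symbols are the 3 libraries and black bars the mean and SD. The Timd4+ macrophage-like class lies at 2904 ± 136 CPM and the Cx3cr1+ class at 1785 ± 81.8 CPM, above the 11 other classes.

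Of the 61 members, 58 had at least 1 UMI in the named classes, 29 reached a mean of 10 CPM in at least 1 class and 32 did not. The class with the highest mean was Timd4+ for 12 of the 29, fibroblast-like for 8 (Slc6a2 and Slc6a11 among them through MAFIA replicate 2 alone), thymocyte-like for 2, pDC-like for 2, and 1 each in 5 further classes. For 16 of the 29 every library of the highest class lay above every library of every other class. In Timd4+ cells these were Slc1a2, Slc1a3, Slc3a2, Slc7a2, Slc7a7, Slc7a8, Slc38a6, Slc38a7 and Slc43a2. The remaining 3 genes that were highest there, Slc6a6, Slc36a1 and Slc36a4, overlapped with other classes. No UMI of Slc6a15, Slc6a18 or Slc7a12 was found.

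**Figure D2:**
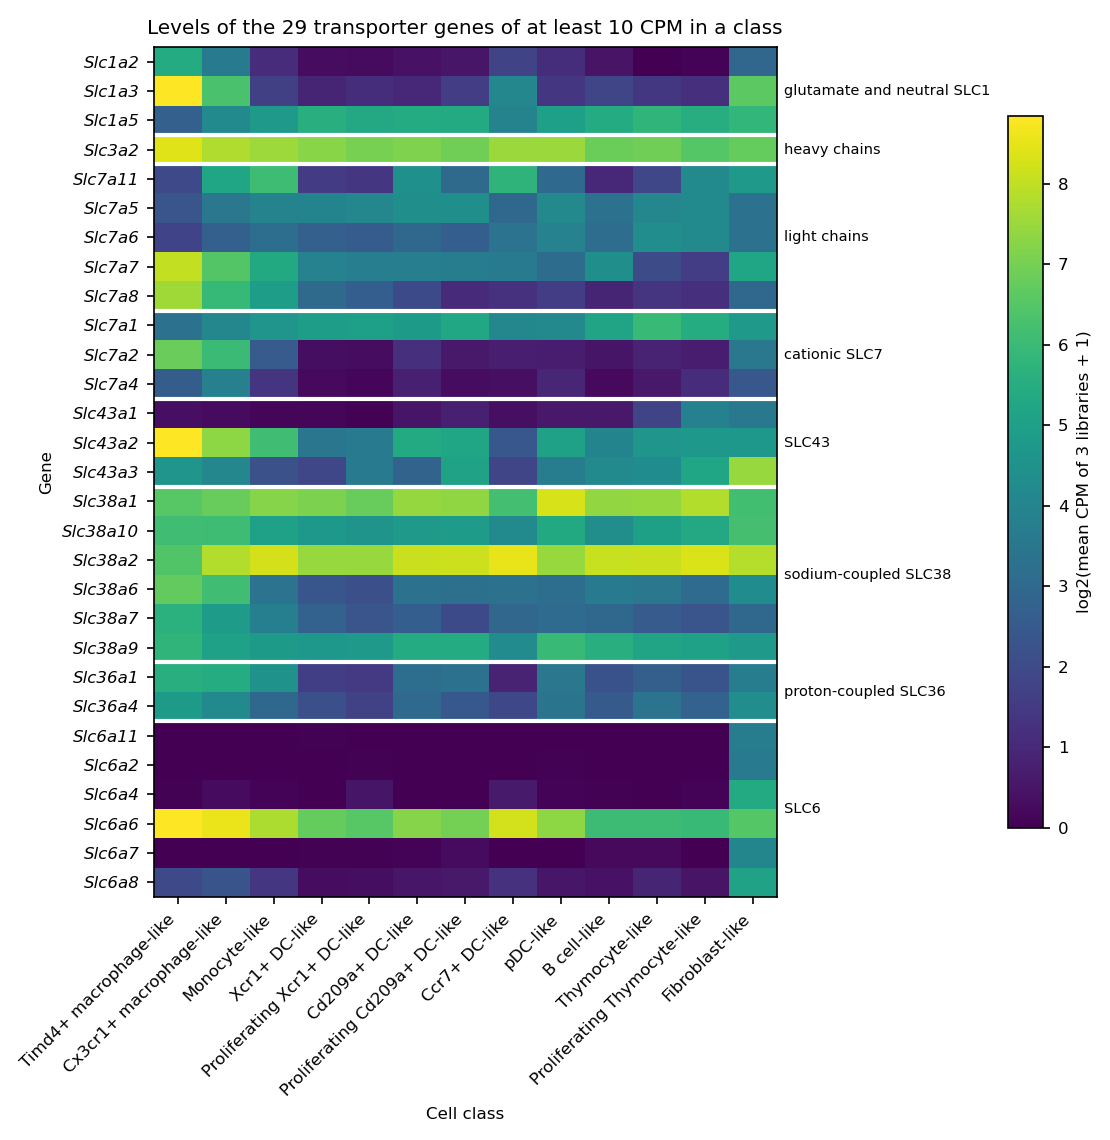
Mean level of the 29 transporter genes of at least 10 CPM in a class, as log2(mean CPM of 3 libraries + 1), with genes in rows grouped by family and cell classes in columns. Bright cells concentrate in the Timd4+ column, whereas Slc6a4 and Slc6a7 are bright in the fibroblast-like column alone, as are Slc6a2 and Slc6a11, whose means there come from MAFIA replicate 2 and are at most 1.59 CPM in the other libraries.

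Timd4+ and Cx3cr1+ macrophage-like cells, the macrophage populations of the thymus, were then compared. Of the 61 members 28 passed the filter on low counts and 33 were not tested, and 12 of these were higher in Timd4+ cells and 10 lower at an adjusted p under 0.05. Over all genes tested 21.1% were higher and 22.1% lower. The members' median log2 fold change was 0.24, against 0.01 over all genes. Glutamate carriers, Slc7a7, Slc7a8 and Slc43a2 were on the Timd4+ side, and Slc7a11, Slc36a2, Slc38a2 and Slc1a5 on the Cx3cr1+ side.

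Glutamate carriers of SLC1 showed the widest differences on the Timd4+ side. Slc1a3 (chr15:8663604-8741595, minus strand) encodes GLAST, the glutamate and aspartate carrier known from astrocytes. Its level was 474, 469.5 and 409 CPM in Timd4+ cells, 95.8, 83.6 and 53.4 CPM in Cx3cr1+ cells and 4.91, 1.33 and 0.372 CPM in monocyte-like cells. The 3 classes did not overlap, and Timd4+ exceeded Cx3cr1+ cells (log2 fold change 2.43, SE 0.22, adjusted p = 2.1e-05). Slc1a3 was one of the genes the study itself named from these cells, as was Slc7a7, so their direction is not independent evidence. With every cell thinned to 3000 UMIs, Slc1a3 had a UMI in 69.1 ± 2.37% of Timd4+ cells, 19.8% of Cx3cr1+ cells, 15.0% of fibroblast-like cells and 0.708% of B cell-like cells, the last a type not known to use it (unthinned 97.2%, 56.7%, 56.4% and 2.64%).

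The related carrier GLT-1, encoded by Slc1a2, followed the same order at lower levels. It stood at 37.9, 42.3 and 45.8 CPM in Timd4+ cells, 14.7, 10.9 and 8.49 CPM in Cx3cr1+ cells and 1.64, 0.442 and 1.49 CPM in monocyte-like cells. These did not overlap either (log2 fold change 1.75, SE 0.21, adjusted p = 0.00013 for Timd4+ against Cx3cr1+). Slc1a1, encoding EAAC1, a carrier of glutamate and cysteine, stayed under a mean of 10 CPM in every class, with 11.1, 9.66 and 8.65 CPM in Timd4+ cells and 0.764, 0.0756 and 0.335 CPM in Cx3cr1+ cells (log2 fold change 4.44, SE 0.45, adjusted p = 0.00013). Monocyte-like cells held no UMI of Slc1a1 against 144 in Timd4+ cells, which made it at least 58.4-fold higher in Timd4+ cells at a floor of 3 counts over the 3 libraries. The exchangers of the family split: Slc1a4 (ASCT1) passed on the Timd4+ side (log2 fold change 1.23, SE 0.39, adjusted p = 0.027), while Slc1a5 (ASCT2), a route of glutamine uptake, was lower at 6.36, 4.59 and 5.45 CPM against 14.3, 17.0 and 21.4 CPM (log2 fold change -1.74, SE 0.19, adjusted p = 5.4e-05).

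Heteromeric carriers changed their light chains between the classes. The heavy chain 4F2hc (CD98), encoded by Slc3a2, stood at 382, 321 and 309 CPM in Timd4+ cells, 208, 236 and 219 CPM in Cx3cr1+ cells and 164, 185 and 208 CPM in monocyte-like cells. Timd4+ cells were above both other classes in every library, by a small amount (log2 fold change 0.46, SE 0.13, adjusted p = 0.014 against Cx3cr1+ cells). Among the light chains, Slc7a7 (chr14:54606895-54655603, minus strand) encodes y+LAT1, which exports cationic amino acids in exchange for neutral ones. Its level was 277, 263 and 241 CPM in Timd4+ cells, 104, 86.2 and 72.2 CPM in Cx3cr1+ cells and 53.7, 33.1 and 33.9 CPM in monocyte-like cells, without overlap (log2 fold change 1.44, SE 0.12, adjusted p = 1.2e-05 for Timd4+ against Cx3cr1+). Slc7a8, also on chromosome 14 (chr14:54959630-55019649, minus strand), encodes LAT2 for neutral amino acids. The level of Slc7a8 was 205, 169 and 197 CPM in Timd4+ cells and 68.6, 56.0 and 53.8 CPM in Cx3cr1+ cells (log2 fold change 1.53, SE 0.13, adjusted p = 1.3e-05). Both light chains were thus higher in every Timd4+ library.

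Slc7a11 ran the other way. It encodes the cystine and glutamate exchanger xCT (chr3:49846975-50398070, minus strand), and its level was 2.02, 1.45 and 5.13 CPM in Timd4+ cells, 24.8, 36.5 and 49.1 CPM in Cx3cr1+ cells and 59.3, 44.6 and 98.6 CPM in monocyte-like cells. All 3 Timd4+ libraries lay under all 3 Cx3cr1+ libraries (log2 fold change -3.90, SE 0.27, adjusted p = 4.3e-06). LAT1 (Slc7a5), for large neutral amino acids, was also lower in Timd4+ cells (log2 fold change -1.59, SE 0.22, adjusted p = 0.00026), as was Slc7a6, y+LAT2 (log2 fold change -1.28, SE 0.26, adjusted p = 0.0028). As a share of all light-chain UMIs, Slc7a7 made up 56.4 ± 3.15% and Slc7a8 41.2 ± 2.64% in Timd4+ cells, leaving 0.625 ± 0.443% for Slc7a11. In Cx3cr1+ cells the shares were 43.5 ± 5.89%, 29.6 ± 2.28% and 18.6 ± 6.83%, and in monocyte-like cells 25.8 ± 7.69%, 18.4 ± 1.38% and 41.3 ± 8.18%.

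**Figure D3:**
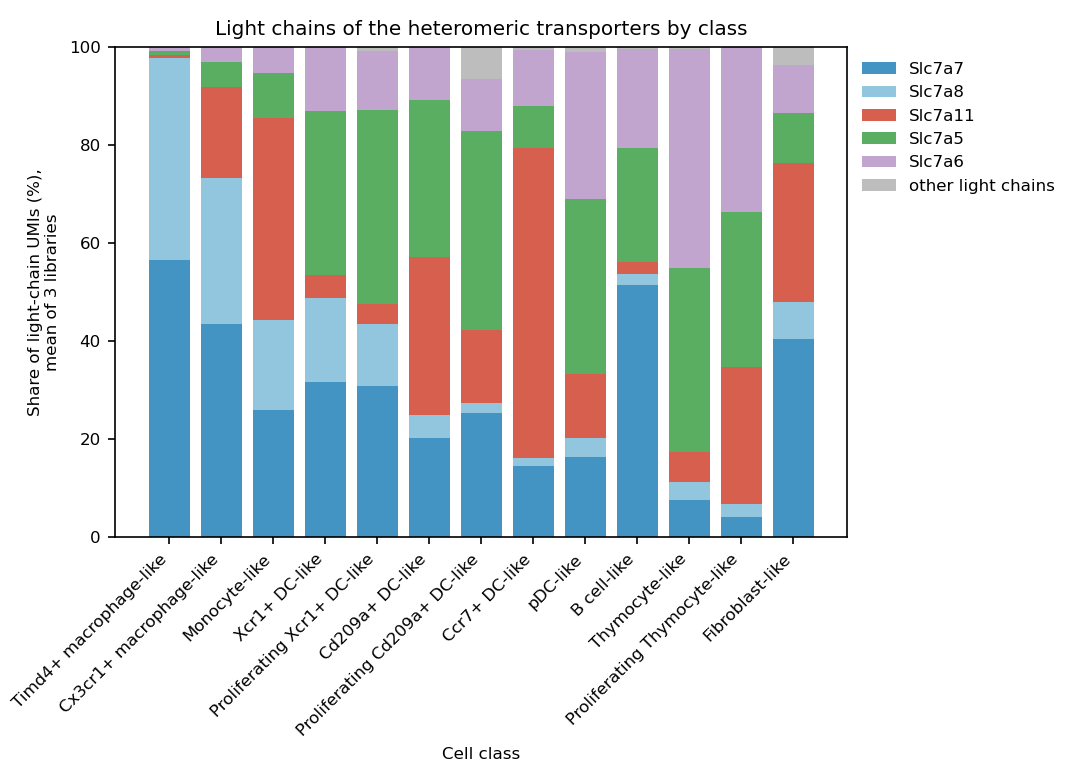
Share of light-chain UMIs (%, mean of 3 libraries) taken by each light chain (stacked colours) in each cell class (horizontal axis). Slc7a7 and Slc7a8 fill the Timd4+ bar (56.4 ± 3.15% and 41.2 ± 2.64%), while Slc7a11 takes 63.2 ± 12.3% in the Ccr7+ class.

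Promoters of these genes were read for the motif TGATGCAA, the core of the amino acid response element through which ATF4 acts on several transporter genes. Promoters are 250 bases before to 50 after the start, from RefSeq on GRCm38.p6, and the motif was searched on both strands. It occurred in 294 of 32851 promoters (0.895%) and, counted by gene, in at least 1 promoter of 1.03% of 27025 genes. Of the 61 members 43 had an entry, and 3 of them held the motif: Slc7a11, Slc7a7 and Slc1a4. These are shown because they include a gene low in Timd4+ cells beside a pair high in them, and the capitals mark the motif, written TTGCATCA where it lies on the opposite strand.
Slc7a11, chr3:50443564-50443863, minus strand: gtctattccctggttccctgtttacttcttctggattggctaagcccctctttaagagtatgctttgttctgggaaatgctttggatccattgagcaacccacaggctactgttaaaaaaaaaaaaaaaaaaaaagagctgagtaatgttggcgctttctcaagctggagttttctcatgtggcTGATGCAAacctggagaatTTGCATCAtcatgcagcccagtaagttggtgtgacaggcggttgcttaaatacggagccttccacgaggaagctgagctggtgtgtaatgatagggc
Slc7a7, chr14:54417895-54418194, minus strand: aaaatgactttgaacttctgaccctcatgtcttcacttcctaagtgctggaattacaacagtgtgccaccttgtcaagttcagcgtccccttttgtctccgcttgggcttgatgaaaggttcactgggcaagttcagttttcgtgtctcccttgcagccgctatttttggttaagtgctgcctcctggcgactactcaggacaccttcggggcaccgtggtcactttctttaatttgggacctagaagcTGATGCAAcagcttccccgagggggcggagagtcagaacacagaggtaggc
Slc1a4, chr11:20332664-20332963, minus strand: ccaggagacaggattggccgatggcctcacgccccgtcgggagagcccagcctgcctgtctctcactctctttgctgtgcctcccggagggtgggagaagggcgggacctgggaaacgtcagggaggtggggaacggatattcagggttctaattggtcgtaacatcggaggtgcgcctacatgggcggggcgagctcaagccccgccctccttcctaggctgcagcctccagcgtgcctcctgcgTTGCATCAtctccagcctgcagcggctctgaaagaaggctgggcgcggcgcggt
Slc7a11 held the motif 2 times, once on each strand. Of the genes higher in Timd4+ than in Cx3cr1+ cells 11 had an entry and 2 held the motif, and of the genes lower there 5 had an entry and 1 held it. The E-box core CACGTG, bound by lysosomal regulators of the MiT/TFE family, was present in 7.15% of promoters and, counted by gene, in 8.09% of all genes. Of the 43 members 9 held it: Slc1a6, Slc1a7, Slc36a1, Slc38a5, Slc38a7, Slc43a1, Slc6a16, Slc6a3 and Slc7a14. Among these, only Slc36a1, Slc38a7 and Slc43a1 reached a mean of 10 CPM in a class. The E-box was held by 1 of the 11 genes higher in Timd4+ cells and 0 of the 5 lower. GAGGAAGT, a site of the macrophage factor PU.1, occurred in 3.20% of promoters, in 3.69% of all genes and in 1 of the 43 members, Slc43a1. A match describes the letters and not binding.

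Carriers of the other families followed. Slc43a2 (chr11:75421362-75477630, plus strand), encoding LAT4, a facilitator for large neutral amino acids, reached 377, 533 and 454 CPM in Timd4+ cells, 144, 183 and 156 CPM in Cx3cr1+ cells and 61, 83.3 and 60.6 CPM in monocyte-like cells. The classes did not overlap (log2 fold change 1.34, SE 0.10, adjusted p = 5.2e-06 for Timd4+ against Cx3cr1+). Slc7a2, the arginine carrier CAT-2, stood at 120.0, 114 and 102 CPM and 89.5, 52.7 and 49.3 CPM, also without overlap (log2 fold change 0.70, SE 0.21, adjusted p = 0.021), whereas Slc7a1, the arginine carrier CAT-1, was lower in Timd4+ cells (log2 fold change -0.92, SE 0.18, adjusted p = 0.0025). Slc7a4, of the same branch, was highest in Cx3cr1+ cells at 14.0, 13.7 and 12.5 CPM, against 6.22, 3.14 and 5.77 CPM in Timd4+ cells (log2 fold change -1.55, SE 0.36, adjusted p = 0.0061).

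Among the sodium-coupled carriers Slc38a2 (SNAT2), which cells induce when starved of amino acids, was lowest in Timd4+ cells of all 13 classes. Its level was 43.5, 106 and 105 CPM there and 166, 255 and 254 CPM in Cx3cr1+ cells (log2 fold change -1.62, SE 0.20, adjusted p = 0.00015). The glutamine carrier Slc38a1 was slightly lower (log2 fold change -0.43, SE 0.12, adjusted p = 0.018) and its library values overlapped. The lysosomal members moved the other way, with Slc38a7 (SNAT7), an exporter of glutamine and asparagine, at 0.63 and Slc38a9, the arginine sensor of mTORC1, at 0.62 on the log2 scale, and both passed the test. Slc38a6 (SNAT6) stood at 0.46.

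Proton-coupled and SLC6 members differed little with a few exceptions. Slc36a1 (PAT1), a lysosomal exporter, stood at 37.3, 52.4 and 48.7 CPM in Timd4+ cells and 42.8, 45.8 and 40.1 CPM in Cx3cr1+ cells, which overlapped (log2 fold change -0.06, SE 0.11, adjusted p = 0.69). Slc36a2 (PAT2), a carrier of glycine, alanine and proline, was close to absent from Timd4+ cells, with 1 UMI against 229 in Cx3cr1+ cells. The ratio of its levels was 67.4 with a 95% counting interval of 12 to 2674 (log2 fold change -5.94, SE 0.83, adjusted p = 0.00031). TauT (Slc6a6), the taurine carrier, stood at 382, 495 and 492 CPM there and 341, 408 and 389.8 CPM in Cx3cr1+ cells and did not pass (log2 fold change 0.11, SE 0.10, adjusted p = 0.42). The glycine carrier Slc6a9 was lower in Timd4+ cells (log2 fold change -1.47, SE 0.40, adjusted p = 0.013).

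All 22 calls had the same sign in 3 of 3 libraries, and 17 of them passed with each library left out in turn. Without Cd11cYFP replicate 1, Slc1a4 (0.87, adjusted p = 0.25), Slc7a2 (0.57, adjusted p = 0.09), Slc38a6 (0.43, adjusted p = 0.054) and Slc6a9 (-1.34, adjusted p = 0.079) no longer passed, and without Cd11cYFP replicate 2, Slc38a1 (-0.46, adjusted p = 0.088), Slc38a6 (0.38, adjusted p = 0.052) and Slc6a9 (-1.57, adjusted p = 0.051) did not. Scaling by library size alone moved the median of all genes by 0.15 (log2) and the share of calls higher over all genes from 48.8% to 64.0%, without turning a member. Markers of other classes moved with this comparison. Toward Cx3cr1+ cells, 7 of 7 monocyte markers were lower in Timd4+ cells (sums of 186, 179.9 and 114 CPM against 2261, 982 and 1171 CPM), as were 7 of 7 Ccr7+ DC markers (225, 250.5 and 159 CPM against 534, 1455 and 1051 CPM) and 11 of 11 proliferation markers (166, 209 and 121 CPM against 538, 524 and 692 CPM). Slc7a11 and Slc38a2, both lower in Timd4+ cells, had their highest means of any class in monocyte-like and Ccr7+ DC-like cells. Toward Timd4+ cells, 5 of 6 B cell markers were higher (216, 182 and 206 CPM against 68.4, 57.7 and 70.1 CPM), while thymocyte markers summed to 138, 116 and 60.6 CPM and 66.7, 94.5 and 94.2 CPM and 0 of 7 passed. The part of these markers in the transporter values was not tested.

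**Figure D4:**
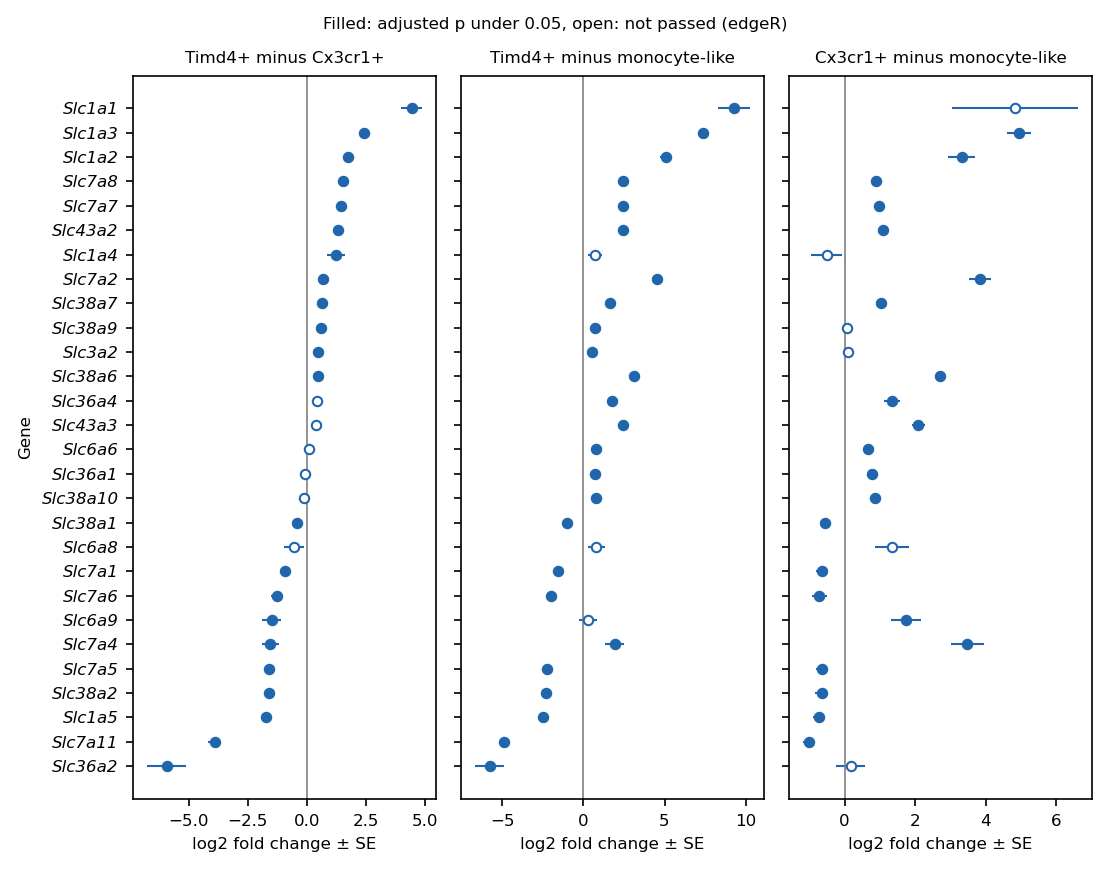
Log2 fold change ± SE (horizontal axis) of the transporter genes that passed the filter on low counts (vertical axis) in 3 comparisons of macrophage-like and monocyte-like cells. Filled points passed edgeR's test at an adjusted p under 0.05. Slc1a3 lies at 2.43, 7.37 and 4.94, and Slc7a11 at -3.90, -4.90 and -1.0.

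Against monocyte-like cells, Timd4+ cells were higher in 17 and lower in 8 of the 28 members tested, beside 28.9% higher and 28.2% lower over all genes. The members' median log2 fold change was 0.78, against 0.02. The largest differences upward were those of Slc1a1, given above as a bound, Slc1a3 (log2 fold change 7.37, SE 0.34, adjusted p = 1.4e-07), Slc1a2 (log2 fold change 5.06, SE 0.35, adjusted p = 1.5e-06), Slc7a2 (log2 fold change 4.54, SE 0.30, adjusted p = 1.2e-06), Slc38a6 (log2 fold change 3.15, SE 0.13, adjusted p = 8.3e-08) and Slc43a3 (log2 fold change 2.46, SE 0.20, adjusted p = 3.9e-06). Downward they were those of Slc7a11 (log2 fold change -4.90, SE 0.27, adjusted p = 3.9e-07), Slc1a5 (log2 fold change -2.48, SE 0.19, adjusted p = 2.7e-06), Slc38a2 (log2 fold change -2.27, SE 0.21, adjusted p = 9.5e-06), Slc7a5 (-2.24) and Slc7a6 (-1.99). Slc36a2 had 1 UMI in Timd4+ and 47 in monocyte-like cells, a ratio of 38.7 with a 95% counting interval of 6.61 to 1559. Slc7a7 differed by 2.42 and Slc6a6 by 0.78, and both passed. Leaving out 1 library ended the call of Slc7a4 alone (without MAFIA replicate 2: 1.40, adjusted p = 0.12; without Cd11cYFP replicate 1: 1.55, adjusted p = 0.064).

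Cx3cr1+ cells were higher than monocyte-like cells in 15 and lower in 7 of the 28 members, beside 18.1% and 17.7% over all genes, with a median of 0.89 against 0.0043. Slc1a3 (log2 fold change 4.94, SE 0.34, adjusted p = 9.8e-06), Slc7a2 (log2 fold change 3.84, SE 0.30, adjusted p = 2e-05), Slc7a4 (log2 fold change 3.48, SE 0.47, adjusted p = 0.00044), Slc1a2 (log2 fold change 3.32, SE 0.38, adjusted p = 0.00016), Slc38a6 (log2 fold change 2.69, SE 0.12, adjusted p = 1.2e-06) and Slc43a3 (log2 fold change 2.09, SE 0.19, adjusted p = 4.5e-05) were the largest of the higher genes. Slc7a7 differed by 0.98. Lower in Cx3cr1+ cells were Slc7a11 (-1.0), Slc1a5 (-0.74), Slc7a6 (-0.72), Slc38a2 (-0.65), Slc7a5 (-0.64), Slc7a1 (-0.64) and Slc38a1 (-0.56), and of these Slc7a11 and Slc1a5 passed without each library in turn. Without Cd11cYFP replicate 1 the adjusted p of the other 5 lay between 0.080 and 0.15, and that of Slc6a9, higher in Cx3cr1+ cells, at 0.063. Without Cd11cYFP replicate 2 it was 0.060 to 0.098 for Slc38a1, Slc7a1, Slc7a5 and Slc7a6, and without MAFIA replicate 2 Slc6a9 was at 1.22, adjusted p = 0.073. This comparison shares its monocyte-like cells with the preceding one, and both macrophage-like classes also entered the comparison between them. Scaling by library size gave 16 higher and 4 lower members, 80.0% higher against 68.2%. In the monocyte-like class the 5 neutrophil markers summed to 2247, 54.3 and 39.8 CPM and the 7 monocyte markers to 11932, 6399.7 and 4637 CPM, both highest in MAFIA replicate 2, and their part in these values was not tested. The 7 Timd4+ macrophage markers summed to 2089, 2046 and 1756 CPM in Cx3cr1+ cells and 607, 429 and 460 CPM in monocyte-like cells. The Cx3cr1+ cluster scored 1.62 for its own markers and 0.97 for Timd4+ markers. Slc1a3, Slc7a2, Slc1a2 and Slc38a6 had their highest means of any class in Timd4+ cells, Slc7a4 in Cx3cr1+ and Slc43a3 in fibroblast-like cells. The part of the Timd4+ markers in these values was not tested either.

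Dendritic cells take up antigen as immature cells and, once they raise the chemokine receptor Ccr7, mature and present it. Against both other DC-like classes, Ccr7+ DC-like cells were higher in the glutamate carriers Slc1a3 and Slc1a2 and in Slc6a8, all at low levels, and in the more abundant Slc7a11, Slc6a6 and Slc38a2, and they were lower in Slc1a5, Slc43a2 and Slc36a1. Against Xcr1+ cells 10 members were higher and 12 lower of 28 tested, beside 35.7% and 35.2% over all genes, with a median log2 fold change of -0.26 against 0.03. Against Cd209a+ cells 10 were higher and 13 lower, beside 32.3% and 35.2%, with a median of -0.40 against -0.03. Both comparisons share the Ccr7+ cells.

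Slc7a11 showed the largest fold change of the members against Xcr1+ cells and a smaller one against Cd209a+ cells. Its level was 35.6, 60.4 and 62.9 CPM in Ccr7+ cells, 21.8, 16.5 and 23.4 CPM in Cd209a+ cells and 0.830, 2.74 and 2.27 CPM in Xcr1+ cells. The 3 classes did not overlap (log2 fold change 4.81, SE 0.29, adjusted p = 7.7e-08 against Xcr1+ cells; log2 fold change 1.61, SE 0.24, adjusted p = 9.8e-05 against Cd209a+ cells). It made up 63.2 ± 12.3% of light-chain UMIs in Ccr7+ cells, 32.4 ± 5.75% in Cd209a+ cells and 4.64 ± 2.66% in Xcr1+ cells, where Slc7a5 (33.6 ± 3.89%) and Slc7a7 (31.7 ± 4.90%) led. The taurine carrier Slc6a6 stood at 267, 329.7 and 298 CPM in Ccr7+ cells against 95.3, 113 and 108 CPM in Xcr1+ and 147, 144 and 155 CPM in Cd209a+ cells, all Ccr7+ libraries being above (log2 fold change 1.57, SE 0.07, adjusted p = 5.7e-09; log2 fold change 1.26, SE 0.06, adjusted p = 2.9e-08). Slc38a2 reached its highest mean of any class in Ccr7+ cells, at 399, 389.6 and 326 CPM, against 137, 196 and 195 CPM in Xcr1+ cells (log2 fold change 1.18, SE 0.16, adjusted p = 5.2e-05).

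The glutamine exchanger Slc1a5 ran opposite. It stood at 13.2, 15.5 and 14.6 CPM in Ccr7+ cells, 47.0, 47.3 and 47.0 CPM in Xcr1+ cells and 40.8, 40.6 and 45.9 CPM in Cd209a+ cells, and no Ccr7+ library overlapped with the others (log2 fold change -1.63, SE 0.07, adjusted p = 8.2e-09; log2 fold change -1.29, SE 0.07, adjusted p = 5.6e-08). LAT4 (Slc43a2) was 3.85, 4.61 and 4.20 CPM in Ccr7+ cells and 35.1, 52.2 and 37.1 CPM in Cd209a+ cells (log2 fold change -3.04, SE 0.12, adjusted p = 6.8e-09). PAT1 (Slc36a1) was 0.642, 0.979 and 0.809 CPM and 10.5, 7.79 and 6.15 CPM (log2 fold change -2.97, SE 0.21, adjusted p = 2.9e-07). Lower than in Xcr1+ cells were further Slc6a9 (log2 fold change -2.78, SE 0.31, adjusted p = 9.8e-06), Slc7a8 (log2 fold change -2.35, SE 0.20, adjusted p = 9.5e-07), the testis member Slc36a3 (log2 fold change -1.83, SE 0.40, adjusted p = 0.0017) and Slc6a13, a GABA and taurine carrier (log2 fold change -1.71, SE 0.26, adjusted p = 0.00013). Lower than in Cd209a+ cells were Slc36a3 (log2 fold change -1.60, SE 0.43, adjusted p = 0.0066), Slc7a5 (log2 fold change -1.29, SE 0.19, adjusted p = 8e-05), Slc36a4 (log2 fold change -1.09, SE 0.20, adjusted p = 0.00052) and Slc38a1 (log2 fold change -1.09, SE 0.15, adjusted p = 7.5e-05).

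Higher in Ccr7+ cells at low levels were the glutamate carriers and the creatine carrier. Slc1a3 was 30.8, 8.12 and 8.63 CPM in Ccr7+ cells and 1.42, 0.442 and 0.772 CPM in Xcr1+ cells, with MAFIA replicate 2 well above the other libraries (log2 fold change 4.04, SE 0.28, adjusted p = 2.1e-07). The summed Timd4+ macrophage markers in Ccr7+ cells were 186, 89.7 and 107 CPM, also highest in MAFIA replicate 2, and their part in the Slc1a3 value was not tested. Slc1a2 (log2 fold change 3.48, SE 0.31, adjusted p = 1.4e-06) and Slc6a8 (log2 fold change 2.67, SE 0.40, adjusted p = 0.00011) stayed at means of 2.47 and 1.39 CPM. Slc7a2, at 0.668 CPM, passed against Xcr1+ cells (log2 fold change 1.5, SE 0.54, adjusted p = 0.028) but not without Cd11cYFP replicate 1 (1.52, adjusted p = 0.052), and Slc3a2 (0.29) lost its call without Cd11cYFP replicate 1 (0.17, adjusted p = 0.24) or 2 (0.24, adjusted p = 0.21). Against Cd209a+ cells Slc1a3 (log2 fold change 4.06, SE 0.30, adjusted p = 4.5e-07), Slc1a2 (3.02), Slc6a8 (1.82) and Slc1a4 (1.46) were higher. There Slc1a4 lost its call without Cd11cYFP replicate 2 (1.04, adjusted p = 0.054), as did Slc7a8 (-0.89, adjusted p = 0.054) and Slc6a13 (-1.08, adjusted p = 0.054), and without Cd11cYFP replicate 1 Slc36a3 (-1.64, adjusted p = 0.051) and Slc6a13 (-0.36, adjusted p = 0.25) did. The direction of Slc6a13 (0.39) and Slc7a8 (0.19) turned with a lower clustering resolution, and that of Slc7a8 (0.62) also with a neighbour graph without library balancing. All 6 monocyte markers tested were lower in Ccr7+ than in Cd209a+ cells, with sums of 2692, 2172 and 1682 CPM against 6296, 6975 and 4805 CPM, and their part in these values was not tested. The same markers summed to 11932, 6400 and 4637 CPM in monocyte-like cells.

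**Figure D5:**
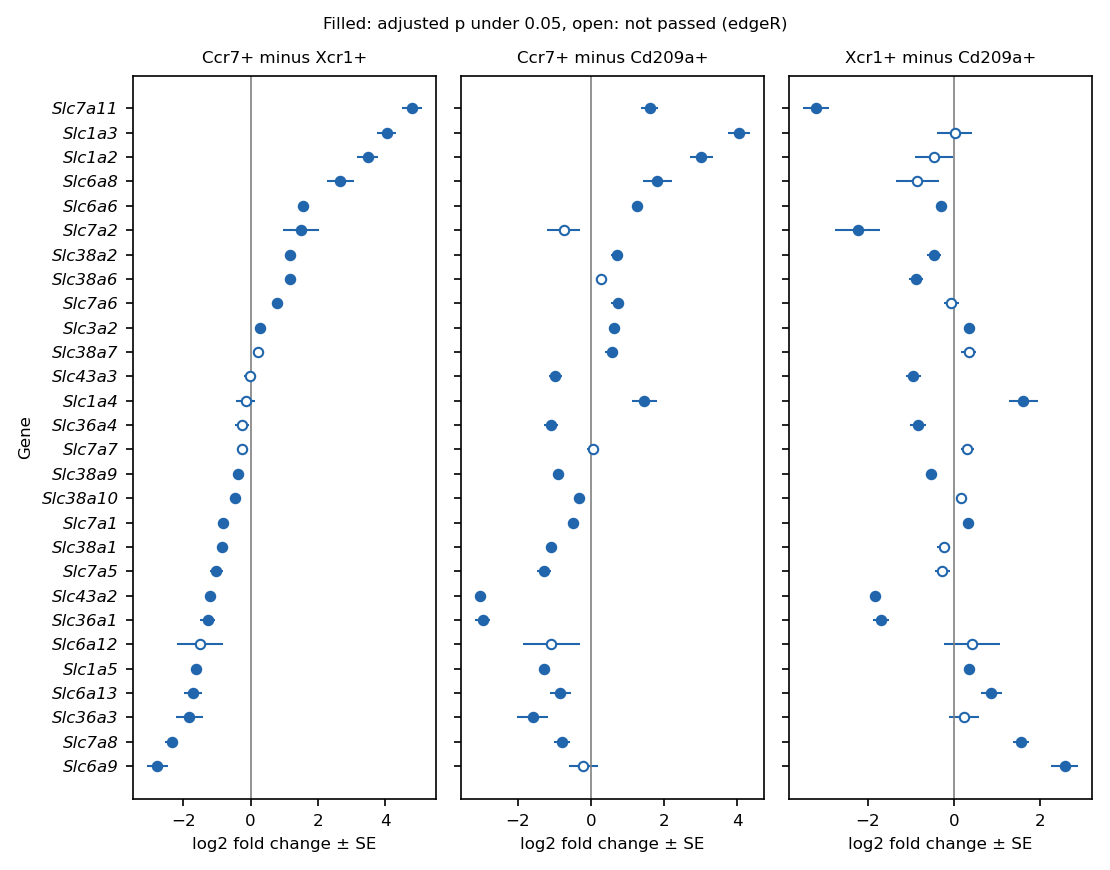
Log2 fold change ± SE (horizontal axis) of the transporter genes that passed the filter on low counts (vertical axis) in 3 comparisons of DC-like cells. Filled points passed edgeR's test at an adjusted p under 0.05. Slc7a11 lies at 4.81, 1.61 and -3.20, and Slc1a5 at -1.63, -1.29 and 0.34.

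Xcr1 and Cd209a are markers of the lineages usually called cDC1 and cDC2. The Cd209a+ name is the weaker of these names here. Of its 2624 cells 2051 came from 1 cluster that scored 0.54 for Cd209a+ markers and 0.42 for monocyte markers. Of 28 members 7 were higher in Xcr1+ cells and 10 lower, beside 22.4% and 24.0% over all genes, with a median of -0.15 against -0.02. The higher genes were led by Slc6a9 at 4.33, 2.56 and 2.94 CPM against 0.588, 0.359 and 0.896 CPM (log2 fold change 2.57, SE 0.32, adjusted p = 6e-05), Slc1a4 at 5.28, 4.15 and 3.41 CPM against 1.68, 1.69 and 1.37 CPM (log2 fold change 1.61, SE 0.33, adjusted p = 0.0023) and Slc7a8 at 7.11, 7.91 and 7.16 CPM against 3.78, 2.46 and 2.57 CPM (log2 fold change 1.56, SE 0.19, adjusted p = 5.4e-05). None of these libraries overlapped. Slc6a13, Slc1a5 and Slc3a2 differed by 0.87, 0.34 and 0.35. Lower in Xcr1+ cells were Slc7a11 (log2 fold change -3.20, SE 0.30, adjusted p = 8.5e-06), Slc7a2 (log2 fold change -2.24, SE 0.52, adjusted p = 0.0043), Slc43a2 (log2 fold change -1.83, SE 0.11, adjusted p = 3.1e-07), Slc36a1 (log2 fold change -1.69, SE 0.18, adjusted p = 2.3e-05), Slc43a3 (log2 fold change -0.95, SE 0.17, adjusted p = 0.00099) and Slc38a6 (log2 fold change -0.88, SE 0.15, adjusted p = 0.00072). Only 10 of the 17 calls passed with each library left out in turn: Slc3a2 and Slc6a13 failed without MAFIA replicate 2 or Cd11cYFP replicate 2 (adjusted p of 0.056 to 0.098), Slc7a1 without MAFIA replicate 2 or Cd11cYFP replicate 1 (0.085 and 0.058), Slc38a2 without Cd11cYFP replicate 1 (0.20), and Slc36a4, Slc6a6 and Slc7a2 without Cd11cYFP replicate 2 (0.055 to 0.095), where Slc7a2 moved to -1.47. Scaling by library size gave 4 higher and 12 lower members, 25.0% higher against 41.2%, as the median of all genes moved by -0.19. All 6 monocyte markers tested were lower in Xcr1+ cells, with sums over 7 markers of 459, 1126 and 617 CPM against 6296, 6975 and 4805 CPM in Cd209a+ cells, where the Cd209a+ markers themselves summed to 3406, 1119 and 2464 CPM. Slc7a11, whose highest mean of any class was 67.5 CPM in monocyte-like cells, moved the same way, and the part of these markers in it was not tested. The monocyte markers were not particular to monocyte-like cells, where they summed to 11932, 6400 and 4637 CPM. In pDC-like cells they summed to 7573, 7354 and 5384 CPM.

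Proliferating Xcr1+ cells differed from other Xcr1+ cells in few members. Of 28 tested 1 was higher and 6 lower, beside 15.5% and 13.5% over all genes, with a median of -0.20 against -0.04. The nucleobase carrier Slc43a3 stood at 13.4, 9.18 and 11.0 CPM in proliferating and 2.49, 3.18 and 2.42 CPM in other Xcr1+ cells, without overlap (log2 fold change 2.0, SE 0.17, adjusted p = 5.4e-06). In the Cd209a+ lineage it stood at 33.1 CPM in proliferating and 6.08 CPM in other cells. The glycine carrier Slc6a9 went the other way, at 0.736, 0.612 and 0.750 CPM against 4.33, 2.56 and 2.94 CPM (log2 fold change -2.21, SE 0.33, adjusted p = 0.00053). These 2 calls passed with each library left out in turn. The remaining 5, Slc1a4 (-1.72), Slc38a7 (-0.59), Slc7a8 (-0.54), Slc1a5 (-0.30) and Slc6a6 (-0.24), each lost the call without some library. Without MAFIA replicate 2 the adjusted p was 0.055 to 0.16 for Slc1a5, Slc38a7 and Slc7a8, without Cd11cYFP replicate 1 it was 0.054 to 0.11 for Slc1a4, Slc6a6 and Slc7a8, and without Cd11cYFP replicate 2, where 3 members passed in all, it was 0.12 to 0.32 for Slc1a5, Slc38a7, Slc6a6 and Slc7a8. Median depth was 37135, 35818 and 32308 UMIs per cell in the proliferating class and 25211.5, 23726 and 20081 in other Xcr1+ cells.

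pDC-like cells, plasmacytoid cells specialised in interferon release, had the highest level of the glutamine carrier Slc38a1 (SNAT1). Its mean was at least 71.3 CPM in every class. Set against the mean of the 12 other classes, 4 members were higher and 8 lower of 36 tested, beside 21.6% and 18.5% over all genes. The members' median was -0.24 against -0.07. This mean was taken over log levels, so 1 class with a high CPM raises it less than it raises a mean of CPM. Slc38a1 stood at 263, 341 and 345 CPM in pDC-like cells, every library being above every library of the other classes (log2 fold change 1.22, SE 0.17, adjusted p = 5.3e-07). The margin was narrow, as the highest library of another class reached 248 CPM. Proliferating thymocyte-like cells came second with a mean of 224 CPM. Slc7a6 (log2 fold change 0.86, SE 0.15, adjusted p = 2.2e-05), Slc38a9 (log2 fold change 0.80, SE 0.14, adjusted p = 1.7e-05) and Slc36a1 (0.45) were also higher. Lower were Slc7a8 (log2 fold change -2.02, SE 0.30, adjusted p = 1.4e-06), Slc1a3 (log2 fold change -1.76, SE 0.48, adjusted p = 0.0034), Slc7a7 (log2 fold change -1.26, SE 0.17, adjusted p = 3.9e-07), Slc7a1 (log2 fold change -0.76, SE 0.13, adjusted p = 2.1e-05), Slc38a2 (log2 fold change -0.57, SE 0.15, adjusted p = 0.0018), Slc1a4 (-1.69), Slc6a9 (-1.5) and Slc38a6 (-0.54). Without MAFIA replicate 2 the calls of Slc1a3, Slc1a4, Slc36a1 and Slc6a9 were lost (adjusted p of 0.051 to 0.35), without Cd11cYFP replicate 1 those of Slc1a4, Slc36a1, Slc38a6 and Slc6a9 (0.058 to 1), Slc1a4 moving to -0.92, and without Cd11cYFP replicate 2 those of Slc36a1, Slc38a6 and Slc6a9 (0.096 to 0.14). Without the fibroblast-like class in the mean, Slc6a9 was at -1.28, adjusted p = 0.060. Scaling by library size gave 7 higher and 8 lower members, 46.7% higher against 33.3%.

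Against the log-scale mean of the other classes, B cell-like cells were higher in 8 and lower in 11 of 36 members. Over all genes 28.5% were higher and 23.3% lower, and the members' median was -0.011 against -0.020. Slc6a13 stood at 10.2, 9.90 and 8.87 CPM (log2 fold change 1.78, SE 0.27, adjusted p = 1.7e-06), its highest mean of any class though under 10 CPM. Slc38a9 (0.62), Slc1a5 (0.59), Slc7a1 (0.58), Slc43a3 (0.49) and Slc7a7 (0.37) were higher by less on this log scale. For Slc7a7 the means of Timd4+ and Cx3cr1+ cells, 260 and 87.5 CPM, were above every B cell-like library. Slc7a7 stood at 24.2, 17.4 and 19.2 CPM and was the leading light chain with 51.4 ± 1.65%, and its call was lost without Cd11cYFP replicate 1 (0.32, adjusted p = 0.12) or 2 (0.31, adjusted p = 0.14), and its direction turned (-0.19) with MAFIA replicate 1 clustered along. Lower were Slc7a11 (log2 fold change -3.16, SE 0.54, adjusted p = 1e-05), Slc7a8 (log2 fold change -2.57, SE 0.26, adjusted p = 6.1e-10), Slc7a4 (log2 fold change -2.19, SE 0.63, adjusted p = 0.0042), Slc7a2 (log2 fold change -2.16, SE 0.55, adjusted p = 0.0013), Slc6a8 (log2 fold change -1.51, SE 0.46, adjusted p = 0.0061), Slc43a2 (-1.06) and Slc1a3 (-0.91). Of the 19 calls 17 had the same sign in 3 of 3 libraries and 11 passed with each library left out in turn. Without MAFIA replicate 2, Slc1a3 moved to -0.18, adjusted p = 0.8, and Slc6a8 and Slc7a4 were at 0.11 and 0.060. Without Cd11cYFP replicate 1 the adjusted p of Slc1a3, Slc36a3, Slc38a2 and Slc43a3 was 0.074 to 0.24, and without Cd11cYFP replicate 2 that of Slc36a3, Slc36a4, Slc38a2, Slc43a3 and Slc7a4 was 0.11 to 1, with Slc36a3 at 0.42 against 1.22 and Slc43a3 at 0.28 on the log2 scale. Without the fibroblast-like class in the mean, Slc1a3 moved to -0.55, adjusted p = 0.23, and Slc6a8 to -1.09, adjusted p = 0.053. Scaling by library size gave 5 higher and 13 lower members (27.8% higher against 42.1%), and DESeq2's size factors 5 and 12 (29.4%).

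Against the log-scale mean of the other classes, thymocyte-like cells were higher in 5 and lower in 13 of 36 members. Over all genes 23.4% were higher and 24.5% lower, and the members' median was -0.67 against -0.12. That mean includes their own proliferating form, which had the second highest means of Slc7a1 and Slc7a6, at 43.6 and 17.8 CPM. Of the markers behind the name, Cd3d stood at 1073, 1127 and 1041 CPM and Rag1 at only 13.9, 6.25 and 9.13 CPM. In the proliferating form Rag1 stood at 51.1, 198 and 219 CPM. Nkg7 was among the leading genes of the class, and the stage of its cells was not tested. CAT-1 (Slc7a1), an arginine carrier, stood at 68.1, 55.0 and 65.3 CPM, every library being above those of the other classes (log2 fold change 1.07, SE 0.11, adjusted p = 1.4e-09), and Slc7a6 was at 18.9, 17.3 and 20.7 CPM (log2 fold change 1.07, SE 0.16, adjusted p = 1.3e-06). Slc1a5 (0.55) was higher too, as were Slc43a1, LAT3 (log2 fold change 2.24, SE 0.58, adjusted p = 0.0018), and Slc6a19, B0AT1 (log2 fold change 3.93, SE 0.77, adjusted p = 0.0001), which rest on 5, 10 and 4 UMIs and on 2, 6 and 5 UMIs. Slc7a7, at 5.68, 2.0 and 1.92 CPM, was the largest of the lower genes with UMIs (log2 fold change -3.09, SE 0.25, adjusted p = 7.3e-12), followed by Slc1a3 (log2 fold change -2.49, SE 0.68, adjusted p = 0.0028), Slc7a8 (log2 fold change -2.21, SE 0.37, adjusted p = 8.3e-06), Slc7a11 (log2 fold change -2.11, SE 0.67, adjusted p = 0.009) and Slc1a4 (-1.79). No UMI of Slc1a2 was found, which allows up to 0.391 CPM over the 3 libraries. Of the 18 calls 10 passed with each library left out in turn. Without MAFIA replicate 2, Slc1a2, Slc1a4 and Slc36a1 were lost (adjusted p of 0.082 to 1), without Cd11cYFP replicate 1, Slc1a3 (-1.88, adjusted p = 0.074), Slc43a1 (1.93, adjusted p = 0.078), Slc7a11 (-2.09, adjusted p = 0.089), Slc1a5 (0.12) and Slc38a6, which moved to -0.43, adjusted p = 0.16, and without Cd11cYFP replicate 2, Slc1a4, which moved to -1.02, adjusted p = 0.34, Slc1a5, Slc36a1 and Slc38a6 (0.052 to 0.15).

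The fibroblast-like class held 28, 88 and 81 cells, the 28 of MAFIA replicate 2 with thymic epithelial rather than fibroblast markers, and its members were not tested. In all 3 libraries it carried the serotonin carrier Slc6a4, at 60.3, 28.1 and 35.0 CPM, and the proline carrier Slc6a7, at 20.7, 14.0 and 11.9 CPM. The GABA carrier Slc6a11, at 35.8, 0 and 1.59 CPM, and the noradrenaline carrier Slc6a2, at 33.9, 1.34 and 0 CPM, were high in MAFIA replicate 2 alone and rested there on 19 and 18 UMIs. In no other class did the mean of these 4 genes reach 1 CPM. Slc43a3 was at 88.6, 230.1 and 211 CPM and Slc6a8 at 45.2, 23.4 and 31.0 CPM, both above every library of every other class, and Slc1a3 was second only to Timd4+ cells at 121, 95 and 76.3 CPM. Slc1a5 stood at 9.42, 93.6 and 65.2 CPM, lowest in MAFIA replicate 2.

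The genes around the transporters were read from 4 lists. Between Timd4+ and Cx3cr1+ cells, where 21.1% of all genes were higher and 22.1% lower, 2 of 22 tested amino acid response targets of ATF4 were higher and 4 lower, with the lipoprotein receptor Vldlr at 2.83, the stress protein Nupr1 at -2.42 and the mTORC1 inhibitor Ddit4 at 1.99. Of 32 genes of lysosomal amino acid sensing by mTORC1, 8 were higher and 3 lower, led by the arginine sensor Castor1 (-1.01) and the sestrins Sesn3 (0.96) and Sesn1 (0.94). Among 18 amino acid carriers outside the member set 5 were higher and 3 lower. The 3 largest were Slc6a20a, an imino acid carrier of SLC6, at -2.85, the aromatic amino acid carrier Slc16a10 at 1.34 and the lysosomal carrier Slc66a1 at 1.21. Amino acid enzymes were higher in 4 and lower in 11 of 25. The largest were the tryptophan enzymes Ido2 (-5.61) and Kynu (-2.06) and Ass1 of arginine synthesis (-3.67).

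In the other macrophage comparisons the lists, with 22, 32, 18 and 25 genes tested in the same order, were higher in 3, 13, 7 and 6 and lower in 7, 6, 5 and 9 genes for Timd4+ against monocyte-like cells (over all genes 28.9% and 28.2%), where Rragd, a Rag GTPase of the lysosome, stood at 4.62. For Cx3cr1+ against monocyte-like cells they were higher in 2, 10, 2 and 8 and lower in 6, 4, 2 and 4 genes (over all genes 18.1% and 17.7%). Between Ccr7+ and Xcr1+ cells, with 35.7% and 35.2% of all genes higher and lower, 7 of 22 ATF4 targets were higher and 11 lower, with Phgdh (-2.89) and Shmt2 (-2.16) of serine metabolism lower and Nupr1 (3.11) higher. Of 33 genes of lysosomal sensing 13 were higher and 15 lower, led by Rragd (5.53), Castor2 (5.41) and Castor1 (2.81). Of 20 other carriers 5 were higher and 13 lower, with the mitochondrial basic amino acid carrier Slc25a29 at 6.36, Slc17a8 at -2.74 and the mitochondrial serine carrier Sfxn1 at -2.69. Of 26 enzymes 12 were higher and 11 lower, led by the arginase Arg2 (6.62), the amino acid oxidase Il4i1 (6.18) and the glutaminase Gls2 (4.00). In the other DC comparisons 22, 33, 20 and 26 genes of the lists were tested. The counts higher and lower were 5 and 10, 8 and 11, 3 and 14, and 13 and 8 for Ccr7+ against Cd209a+ cells (over all genes 32.3% and 35.2%), 12 and 6, 7 and 8, 7 and 7, and 10 and 5 for Xcr1+ against Cd209a+ cells (22.4% and 24.0%), and 1 and 9, 3 and 4, 1 and 6, and 2 and 7 for proliferating against other Xcr1+ cells (15.5% and 13.5%). Against the mean of the other classes 25, 33, 20 and 34 genes were tested. The counts were 2 and 12, 8 and 4, 8 and 5, and 4 and 11 for pDC-like cells (over all genes 21.6% and 18.5%), 10 and 7, 12 and 10, 4 and 11, and 6 and 10 for B cell-like cells (28.5% and 23.3%), and 6 and 10, 3 and 16, 4 and 8, and 5 and 10 for thymocyte-like cells (23.4% and 24.5%).

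Whether the differences between classes themselves differed between the MAFIA library and the Cd11cYFP libraries was tested in the 7 macrophage and DC comparisons. No member passed in any of them by edgeR's quasi-likelihood test, with 3 to 6 members per comparison at an unadjusted p under 0.05 and 0 to 85 genes passing over all. The smallest adjusted p of a member was 0.060, for Slc38a2 between Timd4+ and monocyte-like cells. With 1 MAFIA library the spread within that group is taken from the other libraries.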

How the data were processed

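The single-cell libraries of reporter-positive thymic cells (10x Genomics Single Cell 3' v3) numbered 4, with 3 of them in the comparisons. The count tables deposited by the authors hold unnormalized UMI counts for each gene in each barcode already called as a cell. The submitters' processing notes name bcl2fastq 2.20, STAR 2.7.9a, Cell Ranger and the builds GRCm39 and mm39, whereas the study's methods name mm10; positions here are those of GRCm39, and 54749 of 55418 gene entries were found in its annotation. Members and lists were chosen with earlier results of these data known.

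Barcodes with 1000 to 7000 genes and at most 10% mitochondrial UMIs were kept. The counts were scaled to 10000 per cell, and 2000 variable genes, without 182 transporter and pathway genes, gave 70 principal components, a graph of 3 neighbours per library and 23 Leiden clusters (resolution 1, leidenalg 0.10.2, Python 3.11.15). Clusters were named from fixed markers by a score rule set after the clusters were seen, and 1364 cells of mixed or unnamed clusters were left out. One Cd209a+ cluster, with 2051 of the 2624 cells of its class, had a weak marker score. A thymocyte-like cluster was also led by Nkg7 and a proliferating one by Hbb-bt. Doublets were kept, and 316, 470 and 754 likely doublets were removed in an alternative.

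UMIs were summed per class and library (at least 10 cells), from 530733 to 46641190 UMIs per sum. edgeR 4.0.16 (R 4.3.3) tested the sums by its quasi-likelihood F-test with TMM scaling, the default expression filter and the library as a block, since each library held every class, with Benjamini-Hochberg adjustment over all genes tested and a threshold of 0.05. Macrophage and monocyte classes (12671 genes), DC classes (14296) and all 13 classes (17226) were each fitted together. SEs were log2 fold change over the root of F. The Cd11cYFP libraries came from separate mice by the study's account. With the library as a block, p-values measure how much the class differences varied between these 3 libraries. That variation was estimated over all classes of a fit and moderated across genes. On simulated data for Timd4+ against Cx3cr1+ cells (12351 genes) the test called 21 of 64 genes changed 1.5-fold, 53 of 66 changed 2-fold, 61 of 66 changed 4-fold and 18 of 12155 unchanged genes.

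Members of at least 10 CPM in a class were named. In a comparison all members that passed were named where 12 or fewer, otherwise the 6 largest each way with 1 sign in 3 of 3 libraries; from the pathway lists the 3 largest were named for 2 comparisons and the others counted. Slc7a12 and Slc7a15 were added to the light chains later. Intervals are exact and, like floors, cover counting error only. Alternatives were DESeq2 1.42.0, other scaling, filters, clusterings, thinning, count splitting, leaving out each library and, added after seeing the data, leaving the fibroblast-like class out of the mean.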

Additional observations from a re-analysis of the deposited data

Results flagged for a closer look

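MAFIA replicate 1, which entered no comparison, carried transporter UMIs as well. Over all its barcodes the 61 members summed to 924 CPM, from 24836 UMIs and 47 members with a UMI, against 1111, 1199 and 1085 CPM in the 3 libraries compared. It was singled out because it is data outside the comparisons with a signal above the limit of 0 counts. Its median depth was 3980.5 UMIs per barcode and it held 5500 barcodes.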

How the results depend on the processing

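The number of members that passed stayed within 1.5 times in 9 of the 10 comparisons, each under 17 alternatives. For the pDC-, B cell- and thymocyte-like comparisons, which already come from 1 fit over all classes, the last of the 17 leaves the fibroblast-like class out of the mean, was chosen after seeing the data and gave 13, 20 and 19 members. The exception was proliferating against other Xcr1+ cells (7 members), with 11 members without the filter on low counts, 4 without the replicate block, 3 with every cell thinned to 5000 UMIs before summing, 13 with MAFIA replicate 1 clustered along, and 3 to 6 with 1 library left out, the 3 being without Cd11cYFP replicate 2. The cause was not tested, beyond the fewer UMIs of thinning and the fewer samples. With 1 library left out the counts were 18 to 23 (Timd4+ against Cx3cr1+), 24 to 27 (Timd4+ against monocyte-like), 16 to 21 (Cx3cr1+ against monocyte-like), 21 to 22 (Ccr7+ against Xcr1+), 20 to 23 (Ccr7+ against Cd209a+), 12 to 17 (Xcr1+ against Cd209a+), 9 to 10 (pDC-like), 13 to 17 (B cell-like) and 13 to 15 (thymocyte-like).

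The block is the library, which holds all classes of 1 sort. Without the replicate block the counts were 18, 25, 16, 19, 19, 13, 10, 14 and 18 in the same order, and no direction turned. Directions turned with the clusters for 9 genes in a comparison. Of these, called before the change were Slc6a13 (0.39) and Slc7a8 (0.19) in Ccr7+ against Cd209a+ cells with lower resolution, Slc7a8 (0.62) there with a graph without library balancing, and Slc7a7 (-0.19) in B cell-like cells with MAFIA replicate 1 clustered along. The others passed under the alternative only: with lower resolution Slc38a6 (-0.58) in Ccr7+ against Cd209a+ cells and Slc7a5 (0.59) in Xcr1+ against Cd209a+ cells, with the graph without balancing Slc7a2 (1.51) in Ccr7+ against Cd209a+ cells, with MAFIA replicate 1 clustered along Slc36a1 (0.64) in proliferating Xcr1+ and Slc38a6 (-0.33) in B cell-like cells, and with higher resolution Slc43a3 (-1.23) in thymocyte-like cells. The cause was not tested. Calls kept under their 17 alternatives numbered 14 of 22, 23 of 25, 15 of 22, 16 of 22, 12 of 23, 7 of 17, 5 of 12, 9 of 19 and 7 of 18 in the same order, and 2 of 7 in proliferating Xcr1+ cells. No called direction turned under DESeq2, library-size scaling, count splitting, removal of likely doublets or leaving out a library. The 3 libraries limit all tests. Simulated recovery at 1.5-fold was 32.8% for Timd4+ against Cx3cr1+ cells, the only comparison simulated. That simulation changed far fewer genes than passed in the data, and its libraries differed in depth alone. Its recovery is therefore not an estimate for the real comparisons.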
